A study of Mus musculus with 18 samples.

Results

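Receptors of the TNF receptor superfamily were followed by mRNA sequencing in mouse bone marrow-derived macrophages (BMDMs) that were resting, stimulated with LPS, or stimulated with LPS after pretreatment with defactinib. Defactinib is an inhibitor of the kinases FAK and PYK2, LPS is the bacterial ligand of TLR4, and IRF5 is a transcription factor active downstream of that receptor. The members were the 10 genes whose Ensembl identifiers carry the symbols Tnfrsf1a, Tnfrsf1b, Fas, Cd40, Tnfrsf11a, Tnfrsf9, Tnfrsf4, Tnfrsf14, Relt and Tnfrsf26, out of 50600 genes in the deposited count table, and all 10 passed the filter on low counts. BMDMs had been grown with GM-CSF for 8 days from WT mice (male C57BL/6J animals are the only ones the study's methods describe) or from IRF5 KO mice, whose allele is not described in the sources used here. Each genotype gave 3 groups of 3 libraries. The first was unstimulated. The second received DMSO for 1 h and then LPS at 100 ng/ml for 2 h, and the third received defactinib at 3.5 µM for 1 h and then the same LPS. The sample titles place the unstimulated cells in DMSO, and a figure legend of the study describes 1 h of pretreatment before 0 or 2 h of LPS. The count table calls them untreated, so the sources differ on whether they saw the vehicle. The sources state biological replicates without tying libraries to animals, and p-values therefore measure the spread between these libraries.

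Receptors of this superfamily bind trimeric ligands of the TNF family at the cell surface. Those with a cytoplasmic death domain can recruit adaptors that lead to caspase-8, and most of the others recruit TRAF proteins that lead to NF-κB and MAP kinase signalling. On macrophages the family conveys TNF signals, contact signals from T cells, and, through RANK, the signal for osteoclast formation.

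The libraries held 39282181 to 61949143 counted read pairs, and 15663 genes passed the filter. Macrophage marker genes summed to between 9376 and 18878 CPM (counts scaled to the effective library size) in every library. Most of this was Lyz2, which neutrophils and dendritic cells also use, and the other 7 markers summed to 1436 to 2998 CPM. The sums were at most 7.98 CPM for T cell, 3.20 CPM for B cell, 19.3 CPM for NK cell, 102 CPM for mast cell and basophil and 2591 CPM for neutrophil markers. Dendritic cell markers summed to between 1976 and 2961 CPM, mostly from Itgax. In WT LPS DMSO their sum (2832 to 2944 CPM) exceeded that of the 7 macrophage markers other than Lyz2 (1436 to 1537 CPM), and their part in the results was not tested. In a bulk sample fewer cells of a type and less RNA per cell cannot be told apart. Irf5 itself measured 614 ± 32.5 CPM in unstimulated WT and 365 ± 30.8 CPM in unstimulated IRF5 KO libraries (SD, n = 3), and after LPS with DMSO 451 ± 21.1 CPM in WT and 404 ± 51.3 CPM in IRF5 KO libraries, which overlapped. After LPS with defactinib its mean was lower in WT (276 ± 90.2 CPM) than in IRF5 KO (369 ± 20.2 CPM), again with overlap. Counts over the whole gene do not show which exons were removed, so they do not check the genotype labels. The libraries labelled IRF5 KO LPS DMSO fell apart into replicates 1 and 2 on one side and replicate 3 on the other, with a Pearson r of log2 CPM of 0.932 between replicates 1 and 3 and 0.992 between replicates 1 and 2. For Tnfaip3, an NF-κB target that restrains TNF receptor signalling, replicates 1 and 2 of that group measured 3880 and 3927 CPM, the IRF5 KO LPS defactinib libraries 3516, 3497 and 3509 CPM, and replicate 3 only 391 CPM. Whether libraries of this group were exchanged with those of another was not tested, and this bears on every value of IRF5 KO LPS DMSO. Receptor results that rest on this group are given with and without replicate 3, and without replicates 1 and 2, where the lone remaining library is assumed to vary like the other groups. Among the WT LPS defactinib libraries replicate 3 was the one farthest from the others.

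Levels of different receptors were compared as TPM, which scale counts to gene length as well as to library size. In unstimulated WT BMDMs both TNF receptors led the order. Tnfrsf1b, which encodes TNFR2 (ENSMUSG00000028599, chr4:145213463-145246870, minus strand), stood at 262 ± 29.4 TPM. Tnfrsf1a, which encodes the death domain receptor TNFR1 (ENSMUSG00000030341, chr6:125349362-125362484, plus strand), stood at 150.5 ± 9.82 TPM. Tnfrsf9, the costimulatory receptor 4-1BB (ENSMUSG00000028965, chr4:150914562-150946102, plus strand), followed at 59.6 ± 10.1 TPM. Relt, a receptor with no death domain (ENSMUSG00000008318, chr7:100845847-100863446, minus strand), measured 43.4 ± 1.49 TPM. The middle of the order was held by the death receptor gene Fas (ENSMUSG00000024778, chr19:34290659-34327770, plus strand) at 23.2 ± 2.97 TPM. Tnfrsf26, a mouse receptor homologue (ENSMUSG00000045362, chr7:143607659-143628722, minus strand), was close to it at 22.1 ± 1.17 TPM. Cd40, the receptor for CD40 ligand on antigen-presenting cells (ENSMUSG00000017652, chr2:165055627-165072948, plus strand), measured 17.2 ± 1.25 TPM at rest. Below these came Tnfrsf11a, which encodes RANK (ENSMUSG00000026321, chr1:105780718-105847981, plus strand), at 11.1 ± 0.973 TPM. Tnfrsf14, which encodes the LIGHT and BTLA receptor HVEM (ENSMUSG00000042333, chr4:154922210-154928563, minus strand), measured 8.41 ± 0.888 TPM. Tnfrsf4, which encodes OX40 (ENSMUSG00000029075, chr4:156013843-156016612, plus strand), was the lowest at 2.66 ± 0.240 TPM, and its lowest count in any library was 31. Coordinates are on mm10 as the count table gives them. No member shared exonic sequence with another gene on its own strand, and Tnfrsf26 overlapped E230032D23Rik on the opposite strand, which strand-aware counting keeps apart. Reads that map to several places were not counted, which can lower Tnfrsf26 where its sequence matches its neighbours Tnfrsf22 and Tnfrsf23.

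**Figure D1:**
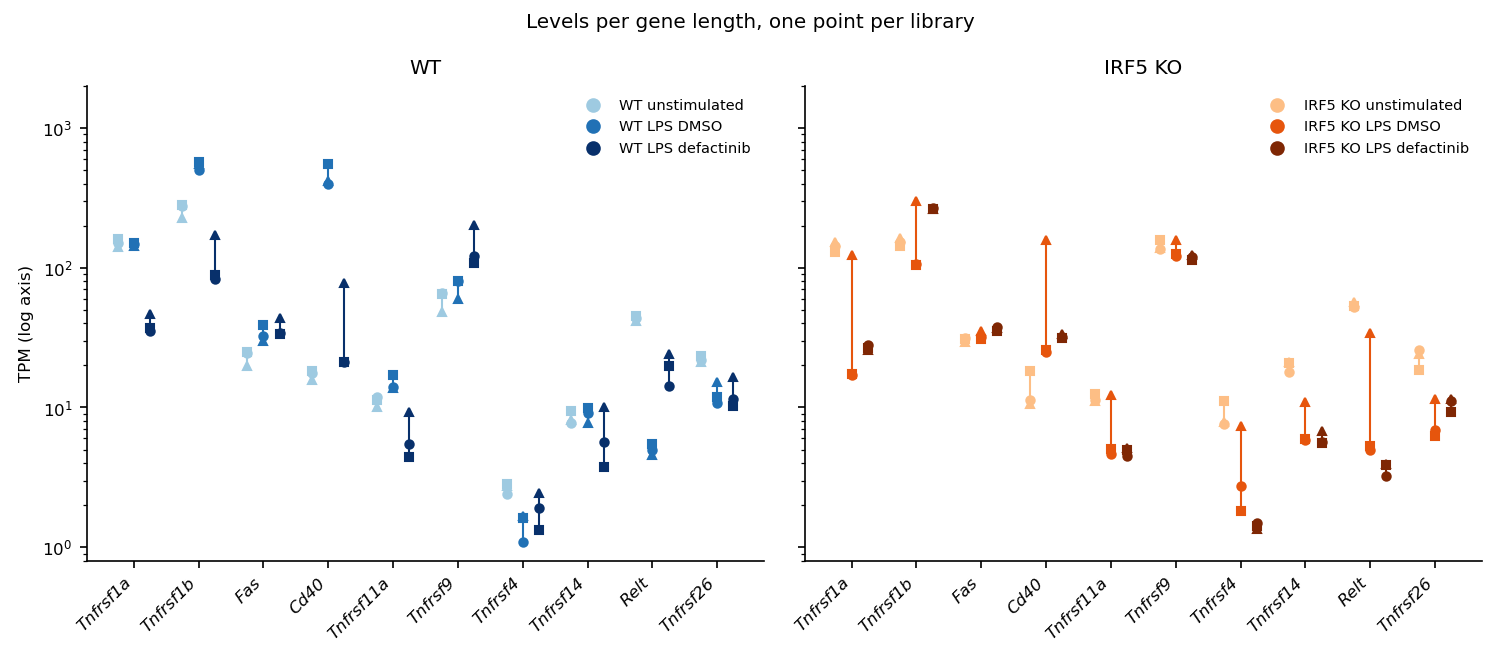
TPM (log axis) of the 10 receptors in WT (left) and IRF5 KO (right) BMDMs, with 1 point per library, the marker shape giving the replicate and the vertical line the range of 3 libraries. By mean TPM Tnfrsf1b is the highest receptor in 5 of 6 groups and Tnfrsf4 the lowest in all 6, and Cd40 ranks 7 of 10 in unstimulated WT and 2 of 10 after LPS.

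After LPS the order in WT BMDMs was led by Tnfrsf1b at 540 ± 37.1 TPM and Cd40 at 456 ± 85.7 TPM. With defactinib before LPS it was led by Tnfrsf9 at 144 ± 50.6 TPM and Tnfrsf1b at 114 ± 49.0 TPM, whose libraries overlapped. In resting IRF5 KO cells Tnfrsf1b (153 ± 10.3 TPM), Tnfrsf9 (144 ± 11.5 TPM) and Tnfrsf1a (142 ± 12 TPM) overlapped. With LPS and DMSO, IRF5 KO replicates 1 and 2 had more Tnfrsf9 (122 and 126 TPM) than Tnfrsf1b (107 and 105.4 TPM), and replicate 3 had less (157 against 298 TPM).

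Reference promoter windows, from 250 bases before to 50 after a RefSeq start site (build GRCm38.p6), were on hand for 8 of the 10 members, with a second window for Tnfrsf9. Cd40 and Tnfrsf26 had none. The stretches below are shown because these 4 receptors were called in the comparison of defactinib with DMSO in WT cells, Tnfrsf1b, Tnfrsf1a and Tnfrsf11a as lower and Relt as higher. Each is the longest run of the 250 upstream bases outside GENCODE exons, on the strand of the gene, 5′ to 3′, and capitals mark matches to any of 4 motifs searched on both strands.
Tnfrsf1b, chr4:145246871-145247120: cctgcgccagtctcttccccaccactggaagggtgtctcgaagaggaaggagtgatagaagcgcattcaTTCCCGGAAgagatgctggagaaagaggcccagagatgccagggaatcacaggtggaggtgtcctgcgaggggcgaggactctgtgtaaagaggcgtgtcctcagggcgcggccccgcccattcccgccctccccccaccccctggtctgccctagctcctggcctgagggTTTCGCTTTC
Tnfrsf1a, chr6:125349509-125349722: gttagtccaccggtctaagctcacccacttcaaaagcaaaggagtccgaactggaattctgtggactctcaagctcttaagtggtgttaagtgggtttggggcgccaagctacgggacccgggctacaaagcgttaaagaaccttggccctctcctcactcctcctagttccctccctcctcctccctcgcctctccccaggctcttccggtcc
Tnfrsf11a, chr1:105780473-105780717: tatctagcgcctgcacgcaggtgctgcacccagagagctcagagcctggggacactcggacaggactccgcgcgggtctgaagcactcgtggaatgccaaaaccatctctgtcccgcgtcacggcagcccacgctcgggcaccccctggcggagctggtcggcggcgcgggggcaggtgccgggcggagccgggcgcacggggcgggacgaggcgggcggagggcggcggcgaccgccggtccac
Relt, chr7:100863447-100863663: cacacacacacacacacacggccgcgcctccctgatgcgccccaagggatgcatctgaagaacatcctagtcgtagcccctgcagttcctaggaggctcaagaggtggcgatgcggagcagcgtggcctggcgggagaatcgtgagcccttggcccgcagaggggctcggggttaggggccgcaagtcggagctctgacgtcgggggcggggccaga
The motifs were the NF-κB consensus, the core of the interferon-stimulated response element (GAAA, a pair of any bases, GAAA), AP-1 (TGANTCA) and the interferon-gamma-activated site GAS (TTCNNNGAA), and they were present in 4.51%, 3.44%, 7.81% and 8.30% of all 32851 windows of this length. The Tnfrsf1b window held a response element core, printed here as its complement TTTCGCTTTC because the core lies on the strand opposite the gene, the genomic plus strand, at chr4:145246871-145246880, and a GAS match, TTCCCGGAA at chr4:145247043-145247051. In the Tnfrsf1a window the single match, a GAS at chr6:125349479-125349487, fell in an annotated exon and so outside the stretch shown. Neither the Relt nor the Tnfrsf11a window held a match to any of the 4 motifs, which says only that these letters are missing there. Among the remaining members the window at the downstream start of Tnfrsf9 held a pair of overlapping NF-κB matches, GGGGATTTCC at chr4:150927956-150927965 and GGGATTTCCC at chr4:150927957-150927966, together with an AP-1 and a GAS match. The Fas window held an AP-1 match at chr19:34290448-34290454 and a GAS match at chr19:34290566-34290574, and the Tnfrsf14 window a response element core at chr4:154928132-154928141. These matches describe sequence and do not show binding.

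**Figure D2:**
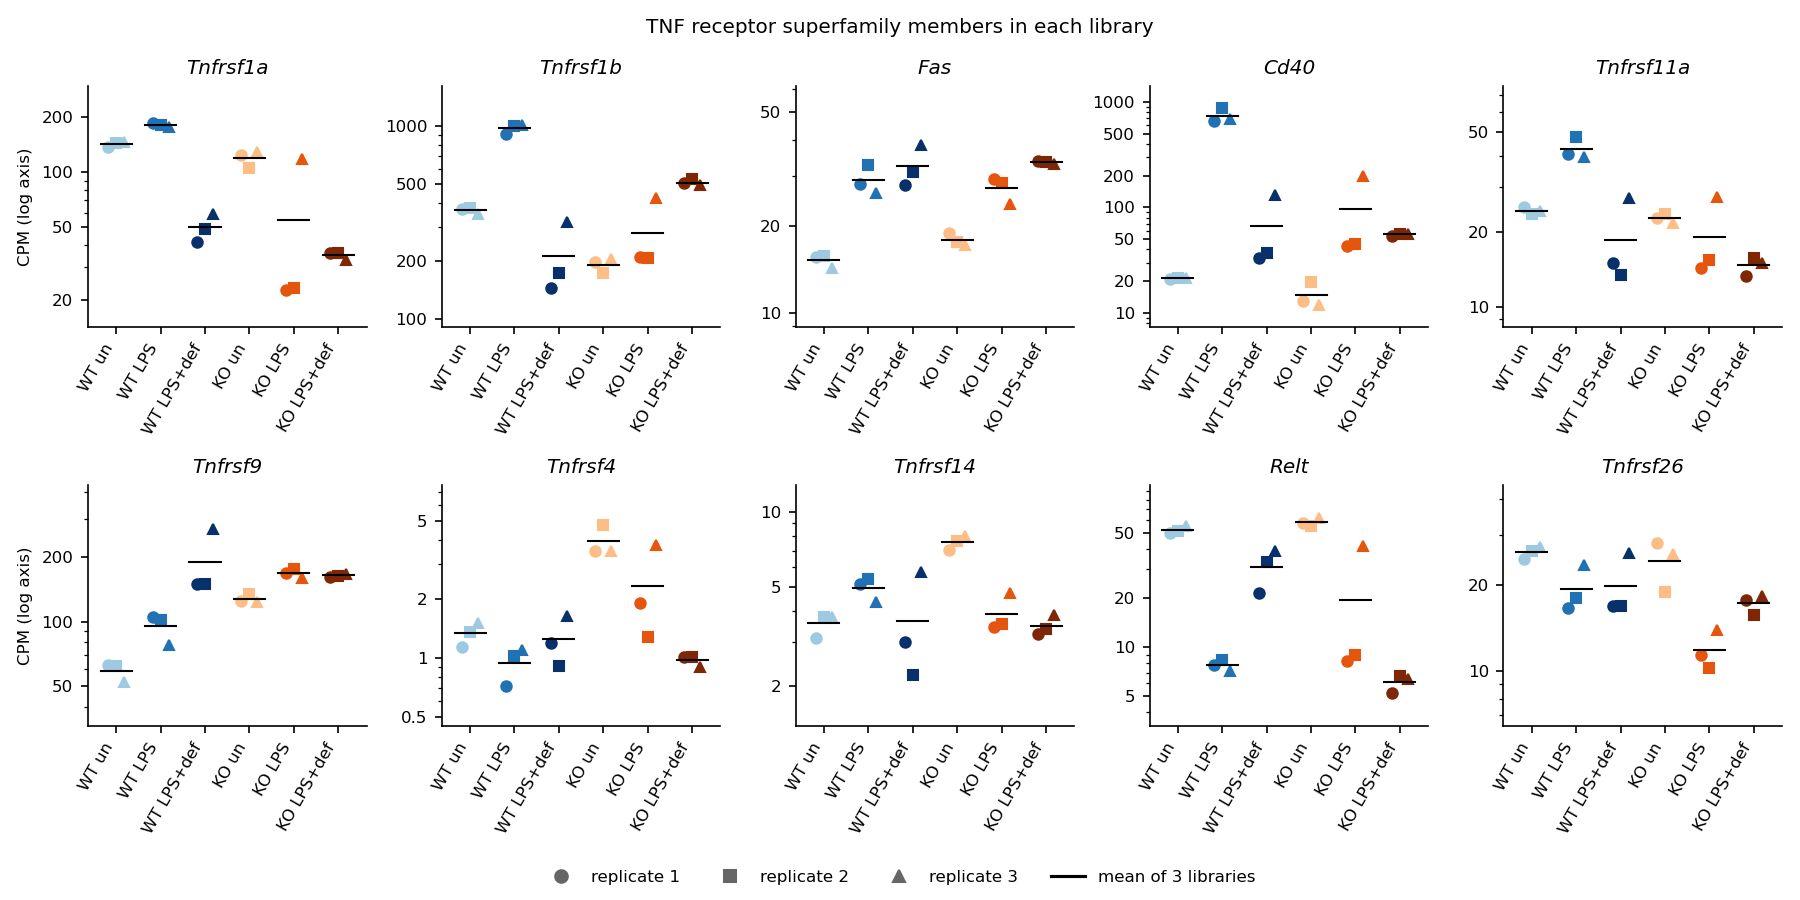
CPM (log axis) of each receptor in every library, grouped by genotype and treatment (un, unstimulated; def, defactinib), with marker shape giving the replicate and a black line the mean of 3 libraries. Cd40 shows the widest range, from 11.8 to 880 CPM, and replicate 3 of IRF5 KO LPS DMSO lies away from replicates 1 and 2 for Tnfrsf1a, Tnfrsf1b, Cd40, Tnfrsf11a and Relt.

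The first comparison asked which receptors responded to 2 h of LPS in WT BMDMs. Cd40 and Tnfrsf1b rose and Relt fell. These 3 of 10 members were called, meaning an adjusted p below 0.05 by edgeR's quasi-likelihood test and a fold change above 2, and 21.3% of all tested genes were called in the same comparison (11.6% higher and 9.71% lower). Another 3 members, Fas, Tnfrsf9 and Tnfrsf11a, passed the adjusted p with smaller fold changes, as did 41.8% of all genes at any fold. The median log2 fold change of the 10 members was 0.58, against -0.0045 over all tested genes. Markers of other cells moved as well, with 4 of 7 neutrophil, 2 of 6 dendritic cell, 2 of 6 mast cell and basophil and 2 of 4 T cell markers called higher after LPS and 1 of 2 NK cell markers lower. The neutrophil markers summed to 191 to 221 CPM at rest and 221 to 271 CPM after LPS, the dendritic cell markers to 2373 to 2547 and 2832 to 2944 CPM, and among the latter the chemokine receptor gene Ccr7 averaged 36.05 and 311 CPM. Their part in the receptor changes was not tested.

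Cd40 went from 20.95, 21.6 and 21.5 CPM in unstimulated WT replicates 1, 2 and 3 to 652, 880 and 682 CPM after LPS. All LPS libraries lay far above all unstimulated ones, and the log2 fold change of 5.11 ± 0.64 (SE) was the largest of the 10 members (34.6-fold, adjusted p = 1.51e-05). Tnfrsf1b went from 371, 375 and 351 CPM to 917, 1012 and 1016 CPM, again without overlap, a log2 change of 1.43 ± 0.27 (adjusted p = 0.000566). The other TNF receptor gene, Tnfrsf1a, measured 137, 144.5 and 146 CPM at rest and 186, 181 and 177 CPM after LPS. The groups did not overlap, but the log2 fold change of 0.35 ± 0.44 did not pass the test (adjusted p = 0.565). The standard error is shared over all 18 libraries, and without IRF5 KO LPS DMSO replicate 3 the same difference of 0.35 had an SE of 0.10 and passed the adjusted p (0.00927), still far under the fold threshold.

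Relt moved the other way, from 49.8, 51.3 and 55.2 CPM to 7.81, 8.34 and 7.19 CPM. Its libraries were clearly separated and its level dropped 6.70-fold (log2 fold change -2.74 ± 0.47, adjusted p = 0.000230). Fas, which signals through FADD and caspase-8, rose from 15.6, 15.7 and 14.3 CPM to 28.2, 32.7 and 26.1 CPM. Its 1.90-fold change was tightly measured (log2 0.93 ± 0.12, adjusted p = 1.93e-05) and stayed just under the fold threshold, which it reached without WT LPS DMSO replicate 3 (1.00). RANK, encoded by Tnfrsf11a, rose from 25, 23.6 and 24.1 CPM to 40.6, 47.5 and 39.5 CPM (log2 0.81 ± 0.24, adjusted p = 0.0130). Tnfrsf9 rose from 62.6, 62.0 and 52.4 CPM to 105, 102 and 77.9 CPM (log2 0.69 ± 0.18, adjusted p = 0.00569). The groups did not overlap for any of the 10 members, whether or not they passed the test. How many of all genes were separated in this way was not counted, so no result about the members as a set follows from it.

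Tnfrsf4 and Tnfrsf14, both low, and Tnfrsf26 were not called. Tnfrsf4 measured 1.14, 1.35 and 1.51 CPM at rest and 0.719, 1.02 and 1.09 CPM after LPS (log2 -0.50 ± 0.34, adjusted p = 0.267). Tnfrsf14 measured 3.13, 3.81 and 3.79 CPM at rest and 5.15, 5.37 and 4.35 CPM after LPS (log2 0.47 ± 0.26, adjusted p = 0.160). Tnfrsf26 measured 24.7, 26.2 and 27.2 CPM at rest and 16.6, 17.98 and 23.5 CPM after LPS (log2 -0.43 ± 0.19, adjusted p = 0.0815). None of the 3 was called whichever single library was left out.

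The same comparison in IRF5 KO BMDMs gave 3 called members, Cd40 as higher and Relt and Tnfrsf26 as lower, where 13.3% of all genes were called (7.07% higher and 6.28% lower). The count depended on which libraries of the LPS DMSO group were used. Without replicate 3 it was 6 (Cd40 higher, and Relt, Tnfrsf1a, Tnfrsf4, Tnfrsf26 and Tnfrsf14 lower) with 26.2% of all genes called. Without replicate 1 or without replicate 2 it was 1 (6.46% and 6.65% of all genes), and without both it was 2, Cd40 and Tnfrsf1b as higher (2.71%). The median log2 fold change of the members was -0.50, against 0.0063 over all genes, and it was -0.86 without replicate 3 and 0.15 without replicates 1 and 2. With only these groups in the fit all 3 calls were lost, for Cd40 (2.75, adjusted p = 0.0980), Relt (-1.52, adjusted p = 0.158) and Tnfrsf26 (-0.98, adjusted p = 0.0754). Among markers of other cells 1 of 7 neutrophil, 2 of 6 mast cell and basophil and 1 of 2 B cell markers were called higher, and their part was not tested.

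Cd40 measured 12.8, 19.8 and 11.8 CPM in unstimulated IRF5 KO libraries and 43.5, 45.1 and 199.6 CPM after LPS. Replicate 3 stood highest, all LPS libraries lay above the resting ones, and the log2 fold change was 2.70 ± 0.58 (adjusted p = 0.00430). It was 1.58 ± 0.47 without replicate 3 (adjusted p = 0.0116) and 3.77 without replicates 1 and 2 (adjusted p = 0.00216), so Cd40 was called under each choice of DMSO libraries. Relt measured 57.8, 55.2 and 61.4 CPM at rest and 8.24, 8.93 and 41.4 CPM after LPS. Replicates 1 and 2 were low and replicate 3 was near the resting level, a log2 change of -1.57 ± 0.44 (adjusted p = 0.0151). For Relt this became -2.76 ± 0.19 without replicate 3 (adjusted p = 2.33e-09) and -0.47 without replicates 1 and 2, where the call was lost (adjusted p = 0.311). It was also lost without replicate 1 alone (-1.19, adjusted p = 0.0657) or replicate 2 alone (-1.21, adjusted p = 0.0704).

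Tnfrsf1a showed the same split. It measured 125, 105.5 and 130 CPM at rest and 22.6, 23.1 and 118 CPM after LPS, where only replicate 3 overlapped the resting libraries. The log2 fold change of -1.13 ± 0.44 missed the threshold (adjusted p = 0.0565), which it passed with a replicate block (-1.31, adjusted p = 0.0290), with library size alone (-1.29, adjusted p = 0.0417) and with DESeq2 (-1.11, adjusted p = 0.0235). It was -2.39 ± 0.13 without replicate 3 (adjusted p = 1.29e-10) and -0.0029 without replicates 1 and 2. Tnfrsf1b measured 196, 173 and 205 CPM at rest and 208, 206 and 425 CPM after LPS (log2 0.55 ± 0.27, adjusted p = 0.115). Here replicates 1 and 2 were at the resting level, and Tnfrsf1b passed without them (log2 1.17, adjusted p = 0.0237) but not without replicate 3 (log2 0.11, adjusted p = 0.683).

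Tnfrsf26 was the third called member, from 28.03, 18.97 and 25.6 CPM to 11.3, 10.3 and 13.9 CPM, with no overlap (log2 -1.03 ± 0.19, adjusted p = 0.00197). Its value was close to the fold threshold, at -1.17 without replicate 3 and -0.78 without replicates 1 and 2 (adjusted p = 0.113). It also fell under the fold threshold without LPS DMSO replicate 1 (-0.99) or 2 (-0.92) without unstimulated replicate 1 (-0.91) or 3 (-0.99), and with a filter at 5 CPM (-0.99). Tnfrsf14 fell from 7.01, 7.66 and 8.02 CPM to 3.44, 3.55 and 4.72 CPM (log2 -0.95 ± 0.26, adjusted p = 0.0118). Tnfrsf14 passed the fold threshold without replicate 3 (-1.11, adjusted p = 0.00179) without unstimulated replicate 1 (-1.004) or with library size alone (-1.18), and missed the adjusted p without replicates 1 and 2 (-0.67, adjusted p = 0.353). Fas rose from 19.03, 17.7 and 17.2 CPM to 29.2, 28.3 and 23.9 CPM (log2 0.59 ± 0.12, adjusted p = 0.00340), and the rise was 0.67 without replicate 3 and 0.42 without replicates 1 and 2 (adjusted p = 0.163).

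The other 3 members did not pass in this comparison. Tnfrsf9 measured 125, 135 and 123 CPM at rest and 169, 176 and 159 CPM after LPS (log2 0.40 ± 0.18, adjusted p = 0.0882), with replicate 3 in place beside replicates 1 and 2 and values of 0.43 without replicate 3 and 0.34 without the others. Tnfrsf4 measured 3.51, 4.77 and 3.52 CPM at rest and 1.91, 1.27 and 3.78 CPM after LPS (log2 -0.75 ± 0.32, adjusted p = 0.0744). Its log2 fold change was -1.30 without replicate 3, where it was called (adjusted p = 0.00047), and -0.043 without replicates 1 and 2. Tnfrsf11a measured 22.7, 23.5 and 21.7 CPM at rest and 14.3, 15.5 and 27.5 CPM after LPS, in both directions from the resting level (log2 -0.24 ± 0.24, adjusted p = 0.440, -0.61 without replicate 3, adjusted p = 0.0202, and 0.30 without replicates 1 and 2, adjusted p = 0.633).

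**Figure D3:**
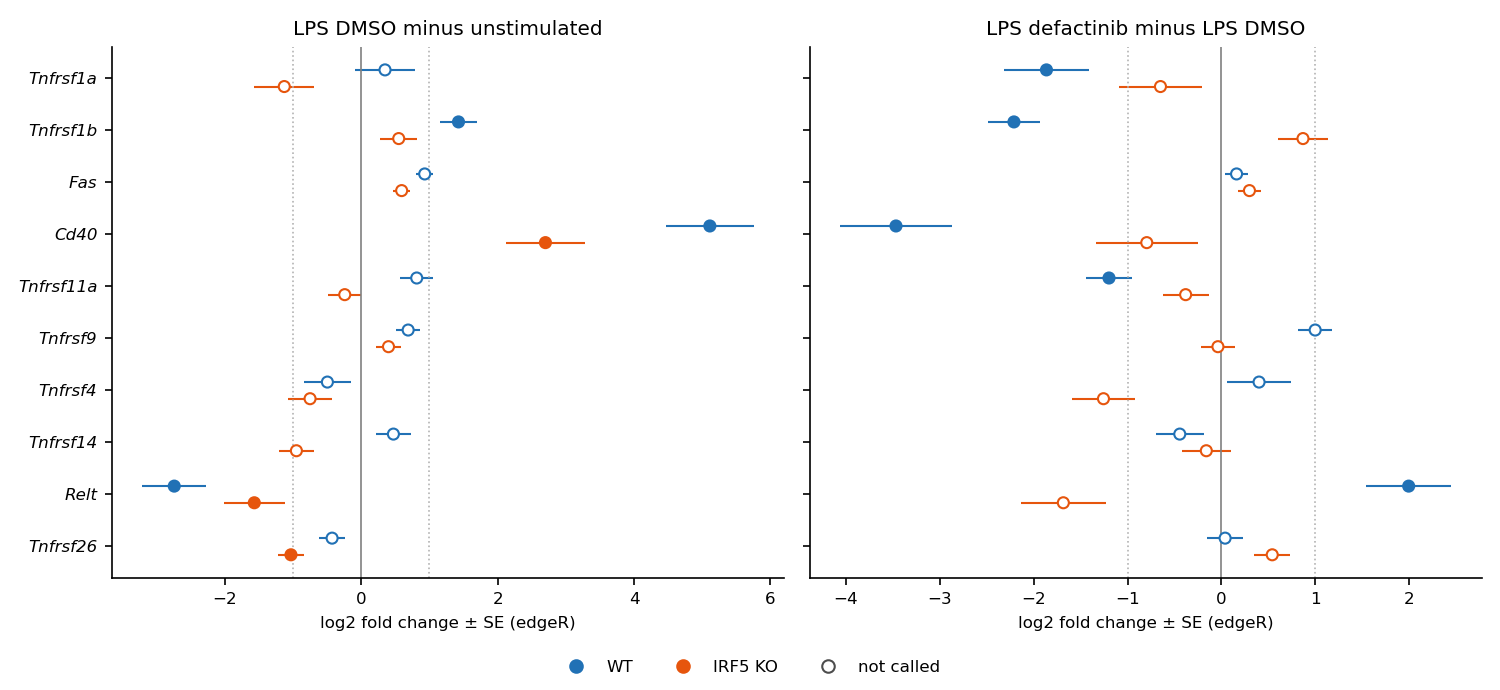
Log2 fold changes ± SE from edgeR for LPS DMSO against unstimulated (left) and LPS defactinib against LPS DMSO (right), in WT (blue) and IRF5 KO (orange), with filled points for called members and dotted lines at a fold change of 2. Both panels use the LPS DMSO libraries, Cd40 is called on the left in both genotypes, and no IRF5 KO point is filled on the right.

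Whether the LPS response differed between genotypes was tested directly as an interaction, the log2 response of WT minus that of IRF5 KO. It was called for 3 members, with 9.83% of all genes called (6.33% higher and 3.49% lower). These were Cd40 (2.41 ± 0.78, adjusted p = 0.0456), Tnfrsf11a (1.06 ± 0.34, adjusted p = 0.0450) and Tnfrsf14 (1.42 ± 0.36, adjusted p = 0.0154), each more positive in WT. Without replicate 3 of IRF5 KO LPS DMSO there were 5, the same 3 (Cd40 3.53, Tnfrsf11a 1.42 and Tnfrsf14 1.58) with Tnfrsf1a (2.74, adjusted p = 1.1e-09) and Tnfrsf1b (1.31, adjusted p = 0.00222) added, and 23.6% of all genes were called. With replicates 1 and 2 left out instead, none of these passed (Cd40 1.34, adjusted p = 0.344; Tnfrsf11a 0.51, adjusted p = 0.378; Tnfrsf14 1.13, adjusted p = 0.0994). Relt was then the single member called (-2.28, adjusted p = 4.81e-05; 6.48% of all genes). The calls for Cd40 and Tnfrsf11a sat at the edge of the threshold. Leaving out any 1 library of the unstimulated groups, of WT LPS DMSO or of IRF5 KO LPS defactinib, or replicate 1 or 2 of IRF5 KO LPS DMSO, took both past 0.05, to at most 0.113 for Cd40 and 0.120 for Tnfrsf11a. So did library size alone (0.0635 and 0.0989) and no filter on low counts (0.138 and 0.0906).

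The second question was what defactinib changed in LPS-treated WT BMDMs. Cd40, Tnfrsf1b, Tnfrsf1a and Tnfrsf11a were lower and Relt was higher with defactinib than with DMSO, so that 5 of 10 members were called, against 29.1% of all genes (10.4% higher and 18.6% lower). The median log2 fold change of the members was -0.20 (-0.55 without WT LPS defactinib replicate 3) and that of all tested genes 0.086. Among markers of other cells 1 of 6 dendritic cell markers was called higher and 2 lower, 2 of 6 mast cell and basophil and 1 of 4 T cell markers lower, and 1 of 2 NK cell markers higher, and of the macrophage markers 2 of 8 were higher and 1 lower. The dendritic cell genes Ccr7 and Zbtb46 averaged 311 and 91.3 CPM with DMSO and 23.2 and 25.2 CPM with defactinib. Others of that list averaged higher with defactinib, Dpp4 at 11.3 and 30.3, Clec9a at 4.99 and 9.70 and Itgax at 2457 and 2656 CPM. The 6 tested had a median log2 fold change of 0.073, and the dendritic cell sum overlapped (2832 to 2944 and 2331 to 2961 CPM). The part of all these markers in the receptor changes was not tested. This comparison shares the WT LPS DMSO libraries with the LPS response above, so a high value in them moves both.

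Cd40 dropped from 652, 880 and 682 CPM with DMSO to 33.0, 36.5 and 131 CPM with defactinib. Every defactinib library lay below every DMSO library and replicate 3 was the highest of them, with a log2 fold change of -3.47 ± 0.59 (11.1-fold, adjusted p = 0.000199) and of -4.39 without that replicate. The defactinib libraries nevertheless stayed above the unstimulated WT libraries, which reached 21.6 CPM. Tnfrsf1b dropped from 917, 1012 and 1016 CPM to 145, 172 and 319 CPM (log2 -2.21 ± 0.28, adjusted p = 1.16e-05). These values lay below the unstimulated WT libraries at 351 to 375 CPM as well.

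Tnfrsf1a, which did not pass in the LPS response, dropped from 186, 181 and 177 CPM to 41.6, 49.1 and 58.9 CPM (log2 -1.86 ± 0.45, adjusted p = 0.00274). With defactinib both TNF receptor genes thus stood below all resting WT libraries. Tnfrsf11a dropped from 40.6, 47.5 and 39.5 CPM to 15, 13.4 and 27.2 CPM (log2 -1.20 ± 0.25, adjusted p = 0.000718), and to -1.56 without replicate 3. Of the 4 printed stretches, that of Tnfrsf1b holds marked matches and those of Tnfrsf1a, Tnfrsf11a and Relt hold none.

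Relt was the exception, going from 7.81, 8.34 and 7.19 CPM with DMSO to 21.4, 33.1 and 38.6 CPM with defactinib. The libraries were separated (log2 1.99 ± 0.46, adjusted p = 0.00180), and with defactinib all 3 remained below the lowest unstimulated WT library at 49.8 CPM. Tnfrsf9 went from 105, 102 and 77.9 CPM to 150, 150.2 and 269 CPM. Its log2 fold change of 1.00 ± 0.18 (adjusted p = 0.000265) lay just under the fold threshold before rounding and fell to 0.68 without replicate 3 of the defactinib group. It passed the threshold in several cases, among them 1.18 without replicate 1 of that group, 1.19 with library size alone, 1.04 with a filter at 5 CPM and 1.03 with only these groups in the fit.

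Fas, Tnfrsf4, Tnfrsf26 and Tnfrsf14 overlapped between DMSO and defactinib. Fas measured 27.9, 30.9 and 38.5 CPM with defactinib (log2 0.16 ± 0.12, adjusted p = 0.268). Tnfrsf4 measured 1.19, 0.914 and 1.64 CPM (log2 0.40 ± 0.34, adjusted p = 0.329), and Tnfrsf26 16.9, 16.8 and 26.0 CPM (log2 0.039 ± 0.19, adjusted p = 0.873). Tnfrsf14 measured 3.00, 2.21 and 5.73 CPM, with replicate 3 high (log2 -0.44 ± 0.26, adjusted p = 0.151). Without replicate 3 its log2 fold change was -0.91 (adjusted p = 0.00109), still short of the fold threshold.

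In IRF5 KO BMDMs the same contrast of defactinib with DMSO called 0 of 10 members by edgeR, with 0.919% of all genes called (0.160% higher and 0.760% lower). At an unadjusted p below 0.05 there were 5 members, as were 23.3% of all genes. DESeq2 called 2, Relt (log2 -1.67, adjusted p = 0.00329) and Tnfrsf4 (log2 -1.26, adjusted p = 0.00847), and 3.57% of the genes to which it gave an adjusted p. Both were also called with library size alone (adjusted p = 0.0476 for Relt and 0.0468 for Tnfrsf4), Relt with a filter at 5 CPM (adjusted p = 0.0388) and Tnfrsf4 with DESeq2 size factors (adjusted p = 0.0495). Neutrophil markers summed to 1054 to 1603 CPM with DMSO and 2419 to 2591 CPM with defactinib. Mmp8 carried this rise (1370 and 2493 CPM on average), and every other neutrophil marker averaged lower with defactinib. Of 7 neutrophil markers tested 0 were called (median log2 -0.57). Macrophage markers summed to 9607 to 12319 and 17950 to 18878 CPM with 0 of 8 called, and 1 of 6 dendritic cell markers was called higher. The part of these markers was not tested. The median log2 fold change of the members was -0.27, against -0.041 over all genes, and it was 0.11 without DMSO replicate 3 and -0.69 without DMSO replicates 1 and 2. The count again changed with the DMSO libraries used. Without its replicates 1 and 2 there were 4 called members, all lower with defactinib (Relt, Tnfrsf1a, Cd40 and Tnfrsf4), and 19.2% of all genes were called. Without replicate 1 or replicate 2 there were 2, Relt and Tnfrsf4 (5.45% and 5.55% of all genes). Without replicate 3 there was 1, Tnfrsf1b, and it was higher with defactinib (1.45%). Leaving out WT LPS defactinib replicate 3, which belongs to neither group compared but enters the filter, the scaling and the shared spread, took Relt (adjusted p = 0.0486) and Tnfrsf4 (adjusted p = 0.0369) past the threshold (1.58%), and leaving out replicate 2 of that group did so for Tnfrsf4 (adjusted p = 0.0448).

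The IRF5 KO LPS defactinib libraries were themselves tightly grouped. Relt measured 5.28, 6.67 and 6.35 CPM, under all 3 DMSO libraries at 8.24, 8.93 and 41.4 CPM (log2 -1.68 ± 0.45, adjusted p = 0.0537). Its log2 fold change was -0.50 without DMSO replicate 3 (adjusted p = 0.103) and -2.78 without replicates 1 and 2 (adjusted p = 5.77e-08), lower in every case. Tnfrsf1b measured 507, 530 and 494 CPM, above the DMSO libraries at 208, 206 and 425 CPM (log2 0.87 ± 0.27, adjusted p = 0.0793). That became 1.30 without replicate 3 (adjusted p = 0.00371) and 0.25 without replicates 1 and 2 (adjusted p = 0.531).

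Tnfrsf1a and Cd40 changed sign with the libraries used. Tnfrsf1a measured 35.98, 36.01 and 32.8 CPM with defactinib, above DMSO replicates 1 and 2 at 22.6 and 23.1 CPM and below replicate 3 at 118 CPM. Its log2 fold change was -0.65 ± 0.44 (adjusted p = 0.392), 0.61 without replicate 3 (adjusted p = 0.00578) and -1.78 without replicates 1 and 2 (adjusted p = 1.09e-07). Cd40 measured 53.7, 56.1 and 56.4 CPM, between DMSO replicates 1 and 2 at 43.5 and 45.1 CPM and replicate 3 at 199.6 CPM (log2 -0.80 ± 0.54, adjusted p = 0.397). It was 0.32 without replicate 3 (adjusted p = 0.732) and -1.87 without replicates 1 and 2 (adjusted p = 0.0219).

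Of the other members, Tnfrsf4 measured 1.01, 1.01 and 0.903 CPM with defactinib (log2 -1.26 ± 0.34, adjusted p = 0.0524), under all DMSO libraries. Its value was -0.71 without replicate 3 and -1.97 without replicates 1 and 2 (adjusted p = 6.44e-05). Tnfrsf26 measured 17.7, 15.7 and 18.4 CPM and Fas 33.7, 33.4 and 32.9 CPM, both above every DMSO library, with log2 fold changes of 0.54 ± 0.19 (adjusted p = 0.107) and 0.30 ± 0.12 (adjusted p = 0.157). Tnfrsf26 was at 0.67 without replicate 3 (adjusted p = 0.0482) and 0.29 without replicates 1 and 2, and Fas at 0.21 and 0.47 (adjusted p = 0.0324 for the latter). Tnfrsf9 at 162, 163 and 166 CPM, Tnfrsf11a at 13.4, 15.7 and 14.98 CPM and Tnfrsf14 at 3.24, 3.40 and 3.85 CPM overlapped the DMSO group, with adjusted p of 0.924, 0.362 and 0.747. Without replicates 1 and 2 Tnfrsf11a had a log2 fold change of -0.92 with defactinib (adjusted p = 0.00875), against -0.021 without replicate 3, and Tnfrsf9 and Tnfrsf14 passed in neither case.

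**Figure D4:**
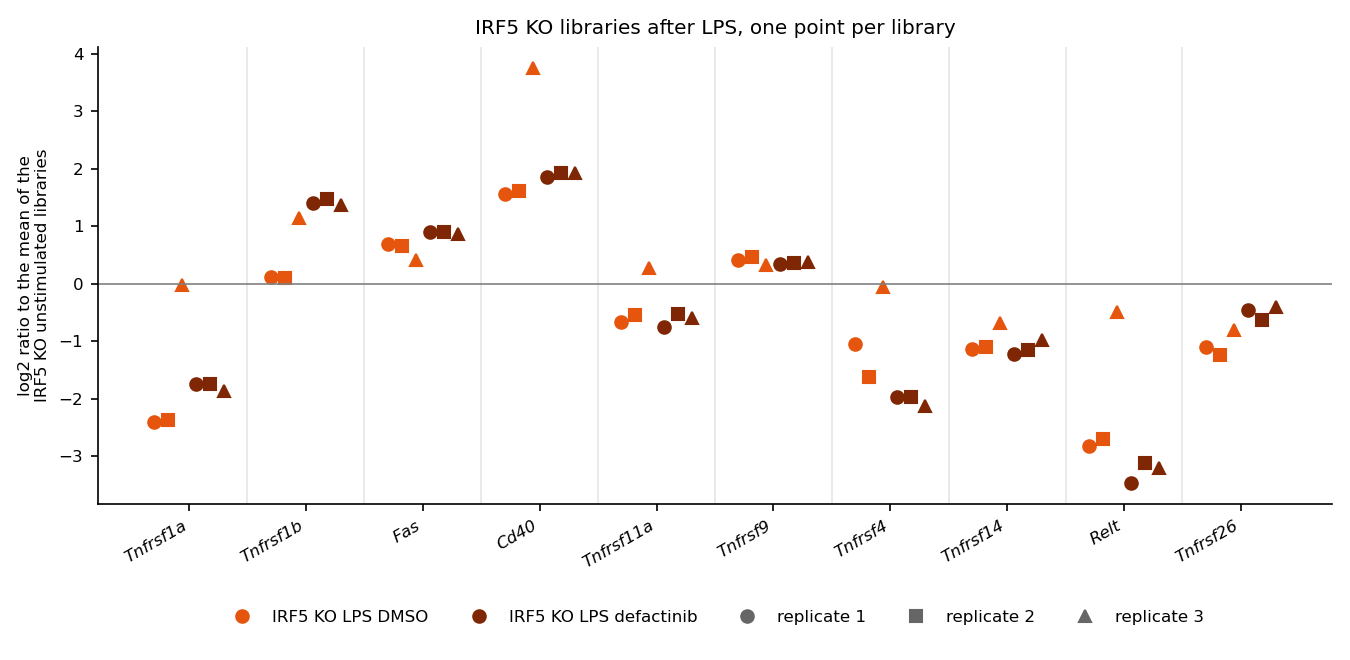
Log2 ratio of each IRF5 KO library after LPS to the mean of the 3 IRF5 KO unstimulated libraries, for DMSO (orange) and defactinib (brown), with marker shape giving the replicate. For Tnfrsf1a, Tnfrsf1b, Cd40, Tnfrsf11a, Tnfrsf4, Tnfrsf14, Relt and Tnfrsf26 DMSO replicate 3 (triangle) lies above DMSO replicates 1 and 2. For Tnfrsf9 and Fas it lies below them.

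Library by library, the IRF5 KO LPS DMSO replicates 1, 2 and 3 lay at log2 ratios of -2.82, -2.70 and -0.49 to the mean of the resting IRF5 KO libraries for Relt. For Tnfrsf1a they lay at -2.41, -2.37 and -0.018. For Cd40 the ratios were 1.56, 1.61 and 3.75. Tnfrsf9 and Fas differed least between the 3 libraries.

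The difference of the defactinib effects, WT minus IRF5 KO, was called for 5 members, with 22.8% of all genes called (10.5% higher and 12.3% lower). Relt (3.68 ± 0.64, adjusted p = 0.000444), Tnfrsf4 (1.66 ± 0.48, adjusted p = 0.0132) and Tnfrsf9 (1.04 ± 0.25, adjusted p = 0.00471) were more positive in WT. Tnfrsf1b (-3.08 ± 0.39, adjusted p = 2.33e-05) and Cd40 (-2.67 ± 0.78, adjusted p = 0.0143) were more negative in WT. Relt, Tnfrsf1b and Tnfrsf4 were called whichever IRF5 KO LPS DMSO libraries were left out, at 2.49, -3.51 and 1.11 without replicate 3 and at 4.80, -2.44 and 2.38 without replicates 1 and 2. Cd40 was at -3.79 without replicate 3 and lost its call without replicates 1 and 2 (-1.58, adjusted p = 0.160) and without the filter on low counts (-2.65, adjusted p = 0.0533). Tnfrsf9 was at 1.07 without replicate 3 and dropped under the fold threshold without replicates 1 and 2 (0.99), without WT LPS DMSO replicate 3 (0.94) and without WT LPS defactinib replicate 3 (0.73). Without IRF5 KO LPS DMSO replicate 3 the difference was also called for Tnfrsf1a (-2.48, adjusted p = 1.26e-09) and Tnfrsf11a (-1.18, adjusted p = 0.00197), and 31.6% of all genes were. Tnfrsf11a was called without WT LPS defactinib replicate 3 as well (-1.17, adjusted p = 0.00423).

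Genotypes were then compared within each condition, as WT minus IRF5 KO. At rest 3 members were called, all lower in WT, against 7.31% of all genes (3.80% higher and 3.51% lower). Tnfrsf4 measured 1.14, 1.35 and 1.51 CPM in WT and 3.51, 4.77 and 3.52 CPM in IRF5 KO (log2 -1.56 ± 0.33, adjusted p = 0.00375). Tnfrsf9 measured 62.6, 62.0 and 52.4 CPM in WT and 125, 135 and 123 CPM in IRF5 KO (log2 -1.11 ± 0.18, adjusted p = 0.000502). Tnfrsf14 measured 3.13, 3.81 and 3.79 CPM in WT and 7.01, 7.66 and 8.02 CPM in IRF5 KO (log2 -1.08 ± 0.26, adjusted p = 0.00848), a difference that was -0.99 and so under the fold threshold without WT unstimulated replicate 1. The genotypes did not overlap for these 3, as for 9 of the 10 members at rest, and how common this was over all genes was not counted. Tnfrsf1b was higher in WT by a log2 of 0.93 ± 0.27 (adjusted p = 0.0272), under the fold threshold, where 15.3% of all genes passed the adjusted p at any fold, and Cd40, Tnfrsf1a, Relt, Fas, Tnfrsf26 and Tnfrsf11a did not pass, with adjusted p from 0.228 to 0.892.

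Marker genes of other cells moved with genotype at rest. The 8 neutrophil markers summed to 191 to 221 CPM in unstimulated WT and to 1029 to 1642 CPM in unstimulated IRF5 KO libraries, and 3 of 7 tested were called lower in WT. Most of this sum was Mmp8, at 191 CPM in WT and 1394 CPM in IRF5 KO on average, while Ly6g, Mpo and Elane averaged at most 0.368 CPM in either. The 8 mast cell and basophil markers summed to 10.8 to 11.7 CPM in WT and to 49.4 to 57.5 CPM in IRF5 KO, with 2 of 6 tested called lower in WT. Gata2 and Kit made up most of that sum, and Cpa3, Mcpt8 and Ms4a2 averaged at most 0.307 CPM. Also called lower in WT were 1 of 8 macrophage, 1 of 6 dendritic cell and 1 of 2 B cell markers. Of 4 T cell markers 1 was higher and 1 lower. The dendritic cell sum was higher in WT, at 2373 to 2547 CPM against 1976 to 2066 CPM in IRF5 KO. The part of these markers in the receptor differences was not tested.

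After LPS with DMSO, 6 members were called between genotypes, with 25.8% of all genes called (14% higher and 11.8% lower). Cd40 (2.94 ± 0.58, adjusted p = 0.000778), Tnfrsf1b (1.81 ± 0.28, adjusted p = 8.45e-05), Tnfrsf1a (1.73 ± 0.45, adjusted p = 0.00523) and Tnfrsf11a (1.16 ± 0.24, adjusted p = 0.00117) were higher in WT. Relt (-1.33 ± 0.45, adjusted p = 0.0221) and Tnfrsf4 (-1.30 ± 0.34, adjusted p = 0.00484) were lower in WT. For Cd40, Tnfrsf1b, Tnfrsf1a and Tnfrsf11a all WT LPS DMSO libraries lay above all IRF5 KO LPS DMSO libraries, replicate 3 included. For Relt replicates 1 and 2 of IRF5 KO, at 8.24 and 8.93 CPM, were next to the WT range of 7.19 to 8.34 CPM, while replicate 3 was at 41.4 CPM. The Relt call was also lost without WT LPS DMSO replicate 1 (adjusted p = 0.0549) or 3 (adjusted p = 0.0631), and Tnfrsf11a fell to 0.97 without IRF5 KO LPS DMSO replicate 1 and to 0.88 with library size alone. With only these groups in the fit Relt (-1.38, adjusted p = 0.147), Tnfrsf4 (-1.34, adjusted p = 0.0636) and Tnfrsf1a (1.68, adjusted p = 0.101) lost their calls, and Relt also did so without the filter on low counts (adjusted p = 0.0573). Neutrophil markers summed to 221 to 271 CPM in these WT libraries and to 1054 to 1603 CPM in these IRF5 KO libraries. Most of this was Mmp8 (201 and 1370 CPM on average). Called lower in WT were 3 of 7 neutrophil, 2 of 6 mast cell and basophil and both tested B cell markers. Called higher in WT were 2 of 4 T cell markers (1 lower) and 1 of 2 NK cell markers. Dendritic cell markers had 1 of 6 higher and 1 lower, with sums of 2832 to 2944 CPM in WT and 2104 to 2734 CPM in IRF5 KO. Of 8 macrophage markers 1 was higher and 2 lower. The part of all these markers in the differences was not tested.

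Without IRF5 KO LPS DMSO replicate 3 the same 4 receptors remained higher in WT, with log2 differences of 4.06 for Cd40, 2.99 for Tnfrsf1a, 2.24 for Tnfrsf1b and 1.51 for Tnfrsf11a, and no member was called lower (34.5% of all genes called). The Relt difference was then -0.14 (adjusted p = 0.498) and that of Tnfrsf4 -0.76. Without replicates 1 and 2, Tnfrsf1b was called higher in WT (1.19, adjusted p = 0.00942) and Relt (-2.43) and Tnfrsf4 (-2.02) lower, with 16% of all genes called. Tnfrsf1b was thus the member that stayed called as higher in WT under both choices. Without replicates 1 and 2 Cd40 was at 1.87 (adjusted p = 0.0600), Tnfrsf1a at 0.60 (adjusted p = 0.00906) and Tnfrsf11a at 0.61 (adjusted p = 0.0988). Tnfrsf9 (-0.82 ± 0.18, adjusted p = 0.00148) and Tnfrsf26 (0.71 ± 0.19, adjusted p = 0.00600) passed the adjusted p only, as 52.2% of all genes did at any fold, and with library size alone Tnfrsf9 was called (-1.07). Without replicate 3 they were at -0.86 and 0.84, and without replicates 1 and 2 at -0.77 and 0.46, where Tnfrsf26 no longer passed (adjusted p = 0.191).

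With defactinib before LPS, which involves none of the IRF5 KO LPS DMSO libraries directly, 2 members were called between genotypes, with 17.3% of all genes called (8.45% higher and 8.87% lower). Relt was higher in WT, at 21.4, 33.1 and 38.6 CPM against 5.28, 6.67 and 6.35 CPM in IRF5 KO (log2 2.35 ± 0.46, adjusted p = 0.00103). Tnfrsf1b was lower in WT, at 145, 172 and 319 CPM against 507, 530 and 494 CPM (log2 -1.27 ± 0.27, adjusted p = 0.00185). The groups did not overlap for either receptor, and WT replicate 3 was the closest to the IRF5 KO libraries for Tnfrsf1b and the farthest from them for Relt. Without that replicate the values were 2.19 for Relt and -1.66 for Tnfrsf1b. Tnfrsf1b therefore changed order between conditions, with WT above IRF5 KO after LPS with DMSO and below it after LPS with defactinib. For the other 8 members adjusted p lay between 0.299 and 0.879. Among them Tnfrsf1a did not overlap between genotypes (log2 0.51 ± 0.44, adjusted p = 0.388). Its standard error is shared over all libraries. Without IRF5 KO LPS DMSO replicate 3 Tnfrsf1a passed the adjusted p (0.51 ± 0.10, adjusted p = 0.00066), under the fold threshold. Neutrophil markers summed to 229 to 370.2 CPM in these WT libraries and to 2419 to 2591 CPM in these IRF5 KO libraries. Most of this was Mmp8 (263 and 2493 CPM on average), and 1 of 7 tested was called lower in WT (median log2 0.0088). Of other lists 2 of 4 T cell markers were called higher and 1 lower, and 1 of 6 dendritic cell markers higher and 2 lower. Higher was also 1 of 2 NK cell markers. Lower were 1 of 2 B cell, 1 of 6 mast cell and basophil and 1 of 8 macrophage markers. The part of these markers in the differences was not tested.

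Across the 6 groups the receptors followed several orders of mean CPM. Tnfrsf1a, Tnfrsf1b, Cd40 and Tnfrsf11a were all highest in WT LPS DMSO, where no library overlapped those of the next group. Relt, Tnfrsf4 and Tnfrsf14 were highest in IRF5 KO unstimulated, separated from the next group for Relt and Tnfrsf14 but not for Tnfrsf4. Tnfrsf26 was highest in WT unstimulated, overlapping IRF5 KO unstimulated, and Fas was highest in IRF5 KO LPS defactinib, where its 4 LPS-treated groups overlapped in turn. Tnfrsf9 was highest in WT LPS defactinib, overlapping both LPS-treated IRF5 KO groups, and lowest in WT unstimulated.

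The genes most like each receptor across all 18 libraries, by Pearson r of log2 CPM, are given as a description, since libraries of 1 group share their treatment. Tnfrsf1a was nearest to Tbc1d10b (r = 0.990), Ppp4r1 (0.989) and Rnf6 (0.988). For Cd40 they were Sp140 (0.986), Fam129a (0.986) and Gm5831 (0.984), and for Tnfrsf11a Adar (0.983), Parp9 (0.982) and Rnf31 (0.981). Relt was nearest to Grk6 (0.981), Engase (0.980) and Slc25a14 (0.980). The nearest genes of the remaining members had a lower r. They were Tnfrsf9 with Gm13546 (0.962), Cmc2 (0.947) and Car2 (0.947), Fas with Zfand6 (0.952), Ikbkb (0.944) and Med28 (0.944), and Tnfrsf1b with Spryd7 (0.951), Slc7a11 (0.948) and Rab32 (0.946). Tnfrsf4 was nearest to Gpr55 (0.946), Bcl9l (0.923) and Camkk1 (0.911), Tnfrsf26 to Kif1c (0.917), Agpat4 (0.887) and Zdhhc9 (0.878), and Tnfrsf14 to Gja5 (0.892), Ube4b (0.869) and Mtor (0.867).

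Partner genes of the receptors were described from 3 lists, 10 ligands and ligand-like partners of the members, 18 other receptors of the superfamily and 34 signalling genes. Among the ligands 8 were tested. In WT LPS DMSO against unstimulated, where 11.6% of all genes were called higher and 9.71% lower with a median log2 fold change of -0.0045, 5 ligands were called higher and 0 lower, with a median log2 fold change of 2.19 (2.35 without Fasl, which had at most 1 count in any library of both groups). Tnf rose by 4.45 ± 0.28, Tnfsf9, the 4-1BB ligand, by 3.87 ± 0.52, Tnfsf4, the OX40 ligand, by 3.09 ± 0.31, Lta, which binds both TNF receptors, by 2.35 ± 0.26, and Btla, the partner of HVEM, by 1.97 ± 0.31. Among the 13 tested other receptors 4 were higher and 1 lower (median -0.14). Higher were Tnfrsf11b, the soluble decoy for the RANK ligand (3.86 ± 0.34), Eda2r (2.75 ± 0.25), Tnfrsf8 (2.62 ± 0.53) and Tnfrsf13b (1.04 ± 0.15), and Tnfrsf21 was lower (-1.45 ± 0.14). Of 34 signalling genes 14 were higher and 2 lower (median 0.60). The increases were led by Tnfaip3 (3.76 ± 0.56), Cflar, an inhibitor of caspase-8 activation (3.37 ± 0.24), Nfkbia (2.80 ± 0.23), Traf1 (2.37 ± 0.29) and Nfkb2 (2.03 ± 0.21), and those lower were Tab1 (-1.73 ± 0.56) and Map3k14 (-1.64 ± 0.56).

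With defactinib in LPS-treated WT cells, 1 ligand was called higher and 5 lower (median -1.79, or -2.07 without Fasl), against 10.4% and 18.6% of all genes and a median of 0.086. Lower were Tnfsf14, which encodes LIGHT (-3.25 ± 0.56), Btla (-2.77 ± 0.32), Tnfsf4 (-2.68 ± 0.31), Lta (-2.07 ± 0.26) and Tnf (-1.52 ± 0.25). The ligand called higher was Fasl, at 5.33, 3.66 and 4.44 CPM with defactinib and at 0, 0 and 0.0254 CPM with DMSO. The other receptors split into 3 higher, Tnfrsf18 (1.77 ± 0.18), Tnfrsf22 (1.27 ± 0.19) and Tnfrsf23 (1.02 ± 0.19), and 6 lower, Tnfrsf11b (-3.46 ± 0.34), Tnfrsf13c (-3.01 ± 0.92), Tnfrsf12a (-2.43 ± 0.51), Tnfrsf8 (-2.30 ± 0.53), Eda2r (-2.01 ± 0.25) and Tnfrsf13b (-1.23 ± 0.15), with a median of -0.22. No signalling gene was called higher and 12 of 34 were called lower (median -0.61). These included the receptor adaptors Traf2 (-2.65 ± 0.39), Traf5 (-1.91 ± 0.32) and Traf1 (-1.64 ± 0.28), the kinase Ripk1 (-2.04 ± 0.28), the ubiquitin ligases Rnf31 (-2.49 ± 0.46), Birc3 (-1.67 ± 0.24) and Birc2 (-1.36 ± 0.22), and Rela (-1.66 ± 0.19). Without WT LPS defactinib replicate 3 the signalling list gave 0 higher and 14 lower.

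In IRF5 KO cells LPS called 4 ligands higher and 1 lower, 1 other receptor higher and 2 lower, and 5 signalling genes higher and 3 lower, with 13.3% of all genes called. Their median log2 fold changes were 0.99, -0.15 and 0.021, against 0.39, -0.45 and 0.028 without replicate 3 and 1.34, -0.12 and 0.087 without replicates 1 and 2. Those higher among ligands were Fasl, Tnf (5.14 ± 0.29), Tnfsf9 (4.69 ± 0.53) and Lta (1.07 ± 0.25), and Tnfsf14 was lower (-1.73 ± 0.44). The split of the DMSO libraries ran through these lists too. Fasl measured 3.54, 3.50 and 0.0196 CPM in replicates 1, 2 and 3, against 1.71, 1.86 and 1.99 CPM with defactinib and at most 0.0312 CPM at rest. Tnfsf9 measured 176, 175 and 22.4 CPM in the DMSO libraries and 178, 190.2 and 166 CPM with defactinib. Lta measured 8.07, 8.93 and 8.73 CPM at rest and 11.7, 12.6 and 29.8 CPM in the DMSO libraries, where replicate 3 was the highest. Without replicate 3 Lta was not called (0.50, adjusted p = 0.00059), and without replicates 1 and 2 it was (1.81, adjusted p = 8.04e-08). Tnfsf14 measured 6.997, 4.23 and 6.18 CPM at rest and 0.679, 0.954 and 3.54 CPM in the DMSO libraries, with replicate 3 nearest the resting level. Its log2 fold change was -2.83 without replicate 3 (adjusted p = 3.45e-07) and -0.70 without replicates 1 and 2, where it was not called (adjusted p = 0.274). Without replicate 3 the counts of higher and lower were 3 and 1 ligands, 1 and 4 other receptors, and 5 and 7 signalling genes, with 26.2% of all genes called. Without replicates 1 and 2 they were 4 and 0, 2 and 0, and 6 and 0, with 2.71% of all genes called. Defactinib in IRF5 KO cells called no ligand and no other receptor and 1 signalling gene, Map3k14, as lower (-2.29 ± 0.58), with 0.919% of all genes called and medians of -0.36, -0.24 and 0.0015. Without DMSO replicate 3 it called 1 ligand higher, Tnfsf14 (1.17), and no gene of the other lists, with 1.45% of all genes called and medians of 0.0014, 0.35 and 0.016. Without DMSO replicates 1 and 2 it called 3 ligands higher and 3 lower, 1 other receptor higher and 4 lower, and 3 signalling genes higher and 7 lower, with 19.2% of all genes called and medians of -0.93, -0.060 and -0.15.

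**Figure D5:**
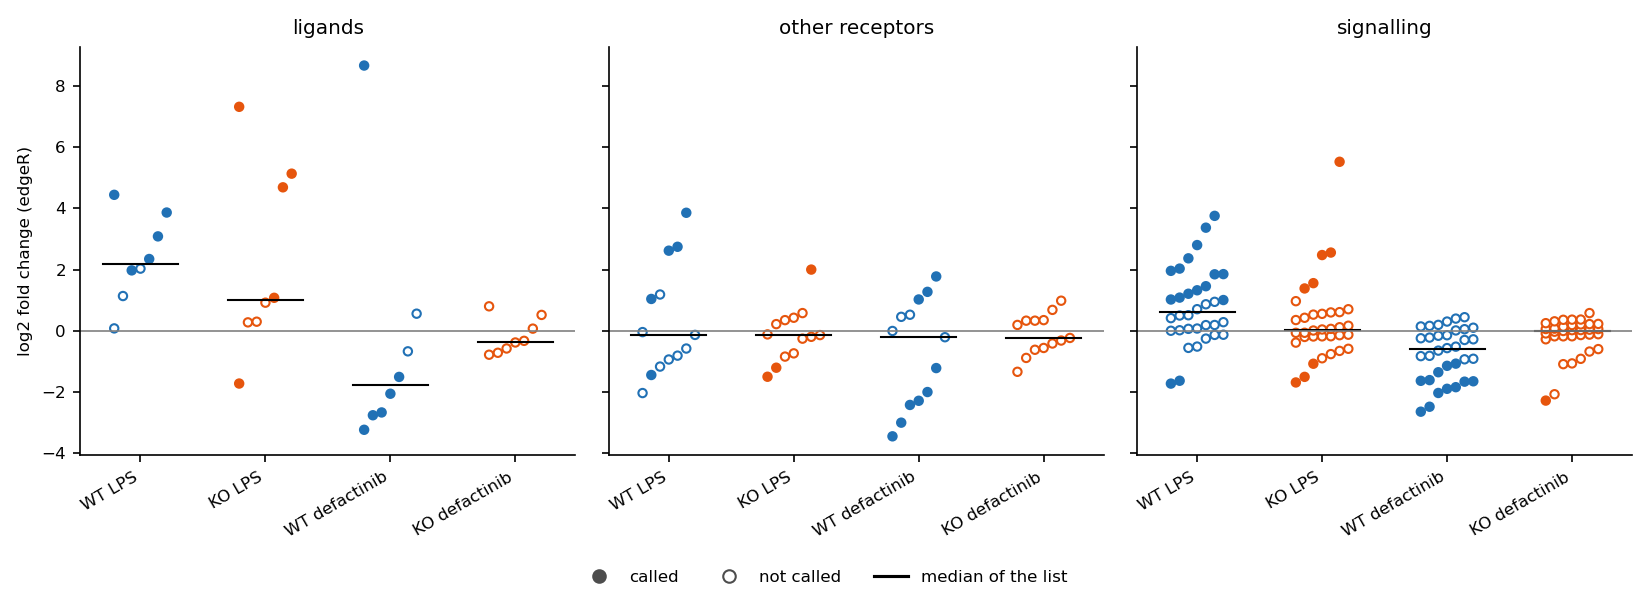
Log2 fold changes from edgeR of the tested ligands, other receptors and signalling genes in 4 comparisons, WT in blue and IRF5 KO in orange, filled where called, with a black line at the median of each list. In WT the ligand median is 2.19 for LPS and -1.79 for defactinib, and the highest point is Fasl, whose fitted value rests on WT LPS DMSO libraries at or near 0.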

How the data were processed

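Libraries were sequenced as paired reads and, per the study's methods, the authors aligned them with STAR to mm10 and counted them with featureCounts, which the file header gives as version 1.6.3 over exons (strand setting 2, mapping quality 255). The deposited values are raw counts of read pairs per gene. The annotation release of the table is not given in the sources used here, and 50376 of 50600 identifiers were matched to a symbol. Counts were tested with edgeR 4.0.16 (quasi-likelihood F test, robust, TMM scaling, filterByExpr) in R 4.3.3, with 1 mean per group over all 18 libraries and Benjamini-Hochberg adjustment over 15663 genes. A gene was called at an adjusted p below 0.05 and a fold change above 2, and each SE was obtained as the absolute log2 fold change over the root of its F statistic. CPM were TMM-scaled, and TPM used the table's gene lengths. The procedure was tested on simulated counts. Alternatives were DESeq2 1.42.0, its size factors, library size alone, other filters, only the groups compared, a replicate block, no fold threshold, and leaving out libraries. Leaving libraries out of the partner lists and the median over the members was an alternative chosen after seeing the data. The 10 members and the partner and marker lists were chosen with earlier results of these data known, and all members are named. The 3 genes most like each member were those with the highest Pearson r. Promoter windows are RefSeq sequence on GRCm38.p6.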

Additional observations from a re-analysis of the deposited data

Results flagged for a closer look

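The LPS response and the defactinib effect differed between genotypes, by the interaction term of edgeR, for several receptors. For the LPS response the difference of WT minus IRF5 KO was 2.41 for Cd40, 1.06 for Tnfrsf11a and 1.42 for Tnfrsf14 on the log2 scale. Cd40 and Tnfrsf11a each lost this call in 17 of 27 alternatives and Tnfrsf14 in 1, and none of the 3 passed without replicates 1 and 2 of IRF5 KO LPS DMSO. For the defactinib effect it was 3.68 for Relt, 1.66 for Tnfrsf4, 1.04 for Tnfrsf9, -2.67 for Cd40 and -3.08 for Tnfrsf1b. All of these use the IRF5 KO LPS DMSO libraries, in which replicate 3 stands apart. Relt, Tnfrsf4 and Tnfrsf1b were called with replicate 3 left out and with replicates 1 and 2 left out.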

How the results depend on the processing

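Across the alternatives, 2270 values for single receptors stayed on the same side of their threshold, 66 lost a call, 57 gained one, 28 moved and none of the called values changed sign. Of the counts of called members, 205 stayed within 1.5 times and 38 moved. The number of called members was 3 for LPS in WT and became 6 without a fold threshold. For LPS in IRF5 KO it was 3 and became 5 with library size alone and without a fold threshold, 0 when only these groups entered the fit, and 1 to 6 when 1 library was left out. For defactinib in IRF5 KO it was 0 and became 1 with DESeq2 size factors and with a filter at 5 CPM, 2 with library size alone and with DESeq2, 4 without both replicates 1 and 2 of IRF5 KO LPS DMSO, and 0 to 2 when 1 library was left out. Between genotypes after LPS it was 6 and became 3 when only these groups entered the fit and 3 without both replicates. The LPS interaction had 3 and became 1 with library size alone, 1 without the filter, 1 without both replicates and 1 to 5 when 1 library was left out. The defactinib interaction had 5 and 3 without both replicates. With library size alone the median of all genes shifted by -0.38 for LPS and 0.20 for defactinib in WT, by -0.24 and -0.13 in IRF5 KO, by -0.11 at rest and -0.25 after LPS between genotypes, and by -0.14 and 0.33 in the LPS and defactinib interactions. The share of called genes that were higher went from 54.5% to 31.4% for LPS and from 35.9% to 49.2% for defactinib in WT, from 53.0% to 34.8% and from 17.4% to 5.71% in IRF5 KO, from 54.4% to 38.1% between genotypes after LPS, and from 64.5% to 44.7% and 46.2% to 69.0% in the interactions. The cause was not tested. Over 45 pairs of same-numbered libraries the median residual r was 0.0046 and the highest 0.278, with 4 pairs above 0.1, and libraries were not treated as paired because not every pair was above it. As a hint from the data only, 12 of 18 libraries correlated best with their own number. With a replicate block the number of called members was 3, 4, 5, 0, 3, 6, 2, 3 and 5 in the order LPS in WT and IRF5 KO, defactinib in WT and IRF5 KO, genotype at rest, after LPS and after LPS with defactinib, LPS interaction and defactinib interaction, where the added member was Tnfrsf1a for LPS in IRF5 KO (-1.31, adjusted p = 0.0290). The share of all genes called was not taken for the replicate block, library size alone, the other filters or only the groups compared. Changes in those counts of members therefore cannot be told from a change over all genes. The lowest count of any receptor in a library was 31, for Tnfrsf4, which limits the precision of its values.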

Other observations

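Some partner genes differed between the genotypes at rest in cells that had received no LPS. Ltb, which encodes lymphotoxin beta, measured 3.67, 3.15 and 3.22 CPM in unstimulated WT and 11.1, 16.2 and 12.5 CPM in unstimulated IRF5 KO libraries (log2 -1.99, adjusted p = 0.00020 by edgeR). Tnfsf14, which encodes the HVEM ligand LIGHT, measured 0.730, 0.744 and 0.763 CPM in WT and 6.997, 4.23 and 6.18 CPM in IRF5 KO (log2 -2.96, adjusted p = 0.00042 by edgeR), without overlap. The 8 tested ligands had a median log2 difference of -1.01, against -0.011 over all genes, with 0 called higher and 2 called lower in WT, against 3.80% and 3.51% of all genes. Of the other receptors Eda2r was higher in WT (1.35) and Tnfrsf13c, the BAFF receptor, lower (-3.33), and no signalling gene was called. Tnf itself reached 2611, 2143 and 2265 CPM in WT LPS DMSO, 2491, 2495 and 1141 CPM in IRF5 KO LPS DMSO, and 3563, 3583 and 3494 CPM in IRF5 KO LPS defactinib libraries, against 1067, 723 and 664 CPM in WT LPS defactinib libraries. Cd40lg and Tnfsf11, the ligands of CD40 and RANK, did not pass the filter on low counts.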
